A study of Mus musculus with 6 samples.

Results

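The genes described here encode kinesins and the proteins of the centromere, the kinetochore and the spindle checkpoint, in lung innate lymphoid cells (ILCs) of wild-type and Rbm3 knockout mice. They are all genes of the count table whose symbol begins with Kif, Cenp, Spc24, Spc25 or Zw in the forms of these families, together with Ndc80, Nuf2, Bub1, Bub1b, Bub3, Mad1l1, Mad2l1, Sgol1, Sgol2 and Mis12. The rule gave 68 of the 14416 genes. They were sorted by their known roles into 14 mitotic kinesins (Cenpe, a kinesin by structure, among them), 16 centromere genes, 9 outer kinetochore genes, 5 checkpoint genes, 16 transport kinesins, 6 other kinesins and 2 genes of other function, Cenpj and Cenpv. The 3 WT and the 3 RBM3KO samples came from C57BL/6J mice, and all were exposed to the mould Alternaria alternata, which evokes allergic lung inflammation, at 25 µg on 3 occasions within 7 days. Cells were sorted from the lungs as Lin-Thy1.2+, that is, without the markers of other blood lineages and with Thy1.2. The labels do not say whether samples came from separate animals or pools, nor the age of the mice or how Rbm3 was inactivated, so the p-values rest on a spread among libraries that could be technical in part. RBM3 is an RNA-binding protein induced by cold.

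Kinesins are motors that use ATP to move along microtubules or to take them apart. Some carry vesicles, organelles and mRNA through the cell at any time, while others are made mainly before division and work mostly during it. The centromere is the site of each chromosome marked by the histone variant CENP-A, on which a constitutive protein network holds the kinetochore, and the outer kinetochore binds spindle microtubules. The checkpoint proteins delay anaphase until every kinetochore is attached. In lymphocytes the RNAs of the mitotic genes are low at rest and high in dividing cells. In bulk RNA, fewer dividing cells and less of an RNA per cell cannot be told apart.

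Libraries held between 7498247 (RBM3KO replicate 3) and 25068137 (WT replicate 3) counts, and 3 counts correspond to between 0.117 and 0.404 CPM. Levels are in CPM, the count divided by the library's total in units of 1e6 after scaling by TMM, a factor that corrects for library composition. Rbm3 had 292 ± 22.0 CPM (SD, n = 3) in the WT libraries against 26.8 ± 4.63 (SD, n = 3) in those of RBM3KO, with every library matching its label. The ILC genes Ptprc, Thy1, Id2, Gata3, Rora, Il7r, Il1rl1, Il5 and Il13 summed to between 3768 and 4331 CPM in WT and between 4957 and 5190 CPM in RBM3KO, so genes of the sorted cell type were detected at high levels in all 6 libraries. The 6 B and plasma cell markers used summed to between 58.0 and 78.2 CPM in WT and between 35.5 and 44.0 CPM in RBM3KO, with the plasma cell gene Igj at 0 in all 3 RBM3KO libraries and Ms4a1 and Blnk at 0 in RBM3KO replicates 1 and 3. The 10 myeloid markers summed to between 68.1 and 215 CPM and between 31.1 and 92.1 CPM. Of these 10, 6 had a lower mean in RBM3KO and 4 a higher one, and Tyrobp fell (log2 fold change -1.34, edgeR adjusted p = 0.0292). Csf1r was at 0 in WT replicate 3 and in RBM3KO replicates 1 and 3. Cd68 and Itgax were at 0 in some RBM3KO libraries, C1qb in WT replicate 3, and Cd14, Emr1 and C1qa in libraries of both genotypes. The 6 NK and ILC1 markers summed to between 47.5 and 215 CPM and between 40.6 and 85.2 CPM, with none at 0. The 8 T cell markers summed to between 174 and 282 CPM and between 194 and 356 CPM, mostly Cd3g. Of these 8, 6 had a lower mean in RBM3KO and 2 a higher one. Cd5 was at 0 in WT replicate 3 and all 3 RBM3KO libraries, and Cd8b1 in RBM3KO replicates 1 and 2. Cd8a was at 0 in WT replicates 1 and 3 and RBM3KO replicate 2, and Cd6 in RBM3KO replicate 1. The 6 epithelial markers summed to between 19.0 and 97.6 CPM in WT and to 16.8, 19.9 and 277 CPM in RBM3KO replicates 1, 2 and 3, where RBM3KO replicate 3 stood apart through the surfactant gene Sftpc at 248 CPM, and Sftpb was at 0 in RBM3KO replicates 1 and 2. The 4 stromal and endothelial markers found summed to between 41.6 and 61.4 CPM and between 58.0 and 67.2 CPM, mostly Pecam1, with Col1a1 at 0 in every library but WT replicate 1. The 4 granulocyte and mast cell markers found summed to between 15.4 and 21.7 CPM and between 12.5 and 22.6 CPM, mostly Cpa3. Malat1, a nuclear RNA, stood at 206 to 302 CPM in WT and 327 to 731 CPM in RBM3KO, a gene chosen after its values were seen. The part of these differences in the results below was not tested.

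The summed level of the mitotic kinesins was lower in every RBM3KO library than in any WT library, and that of the transport kinesins was not. Summed over all 14 mitotic kinesins, the level was 274, 261 and 227 CPM in WT replicates 1, 2 and 3 and 156, 148 and 97.0 CPM in RBM3KO replicates 1, 2 and 3. The 16 transport kinesins summed to 152, 170 and 159 CPM in WT and 182, 166 and 173 CPM in RBM3KO. The ratio of the mitotic to the transport sum was 1.80, 1.53 and 1.43 in WT and 0.854, 0.890 and 0.560 in RBM3KO. The 16 centromere genes summed to between 431 and 474 CPM in WT and between 283 and 334 CPM in RBM3KO, the 9 outer kinetochore genes to between 243 and 282 CPM and between 146 and 172 CPM, and the 5 checkpoint genes to between 531 and 554 CPM and between 380 and 449 CPM. None of these 3 sums overlapped between the genotypes. RBM3KO replicate 3, the shallowest library and the one with the high epithelial sum, was the lowest for the mitotic kinesins, the centromere genes and the checkpoint genes, and RBM3KO replicate 2 for the outer kinetochore. RBM3KO replicates 1 and 2 were each below every WT library in these 4 sums as well. A few abundant genes weigh most in such sums, above all Bub3 for the checkpoint and Cenpa for the centromere. Kif22 had a mean of 112 CPM in WT and 54.1 in RBM3KO, of mean mitotic kinesin sums of 254 and 134 CPM. Spc24 had means of 107 and 47.0 CPM, of mean outer kinetochore sums of 259 and 157 CPM.

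**Figure D1:**
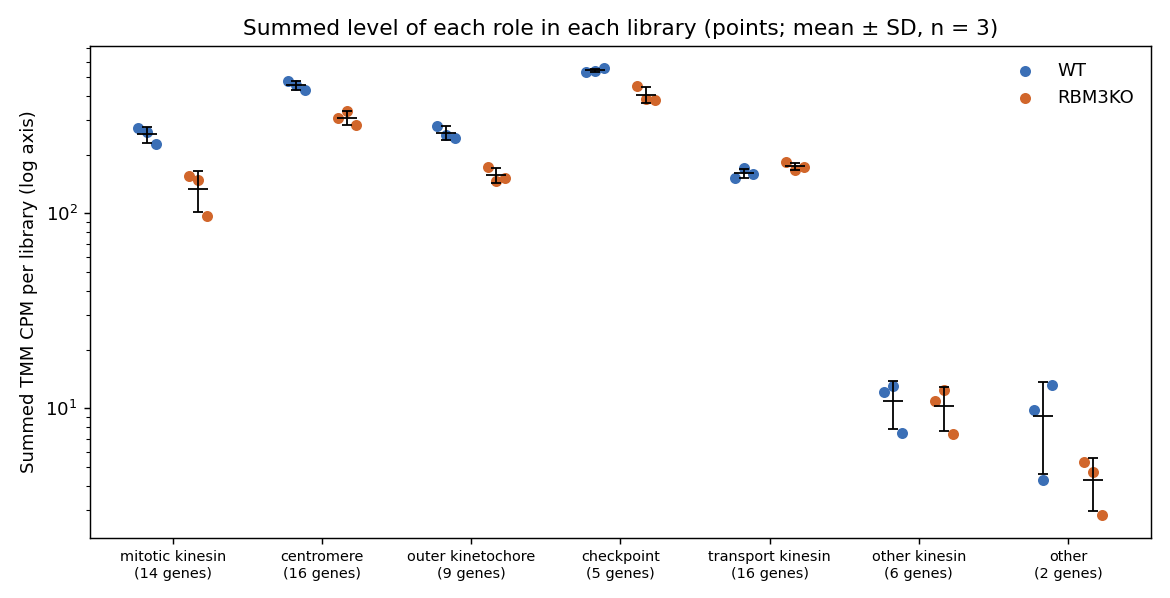
Summed TMM CPM (log axis) of the genes of each role in each library, with WT in blue, RBM3KO in orange, and the mean and SD of 3 libraries in black. The mitotic kinesin sums lie at 227 to 274 CPM in WT and 97.0 to 156 CPM in RBM3KO, while the transport kinesin sums of the genotypes overlap.

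Of the 68 genes, 60 passed the filter on low counts and were tested among 11382 genes with edgeR's quasi-likelihood test. Spc24, Kif22 and Bub1b fell in RBM3KO (edgeR adjusted p under 0.05), 57 did not pass, and 0 rose, with 1 higher at an unadjusted p under 0.05 (5.46% of all tested genes) and 0 higher by DESeq2 or limma-voom. That is 5% of the 60 genes, where 1.00% of all tested genes were called lower and 0.246% higher. The 44 mitotic kinesin, centromere, kinetochore and checkpoint genes together included 40 tested genes, of which 38 had a log2 fold change (RBM3KO minus WT) below 0, against 49.1% of all tested genes. Their median log2 fold change was -0.78, against 0.01 over all tested genes, and 17 of the 40 had an unadjusted p under 0.05 in the lower direction, against 6.87%. In 19 of the 40 every RBM3KO library lay below every WT library, against 10.5% of all tested genes. The 14 tested transport kinesins had a median of 0.10, with 6 below and 8 above 0, of which 0 were called by edgeR, DESeq2 or limma-voom, where edgeR called 1.25% of all tested genes in either direction, and 1 had an unadjusted p under 0.05. In 2 of the 14 every RBM3KO library lay above every WT library, against 8.43% of all tested genes, and in 1 below. A gene that passes the filter through its WT counts alone has to be lower in RBM3KO, so these counts over tested genes are descriptions. Without RBM3KO replicate 3, 36 of 41 tested genes of these 4 roles had an estimate below 0, their median was -0.65, that of the transport kinesins was 0.20, and 1 of the 68 genes, Spc24, was called. Counted over all 44 with no filter, 41 had a lower mean in RBM3KO, and Cenpb, Cenpc1 and Kifc5b did not. Of the 16 transport kinesins, 7 had a lower mean and 9 a higher one.

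**Figure D2:**
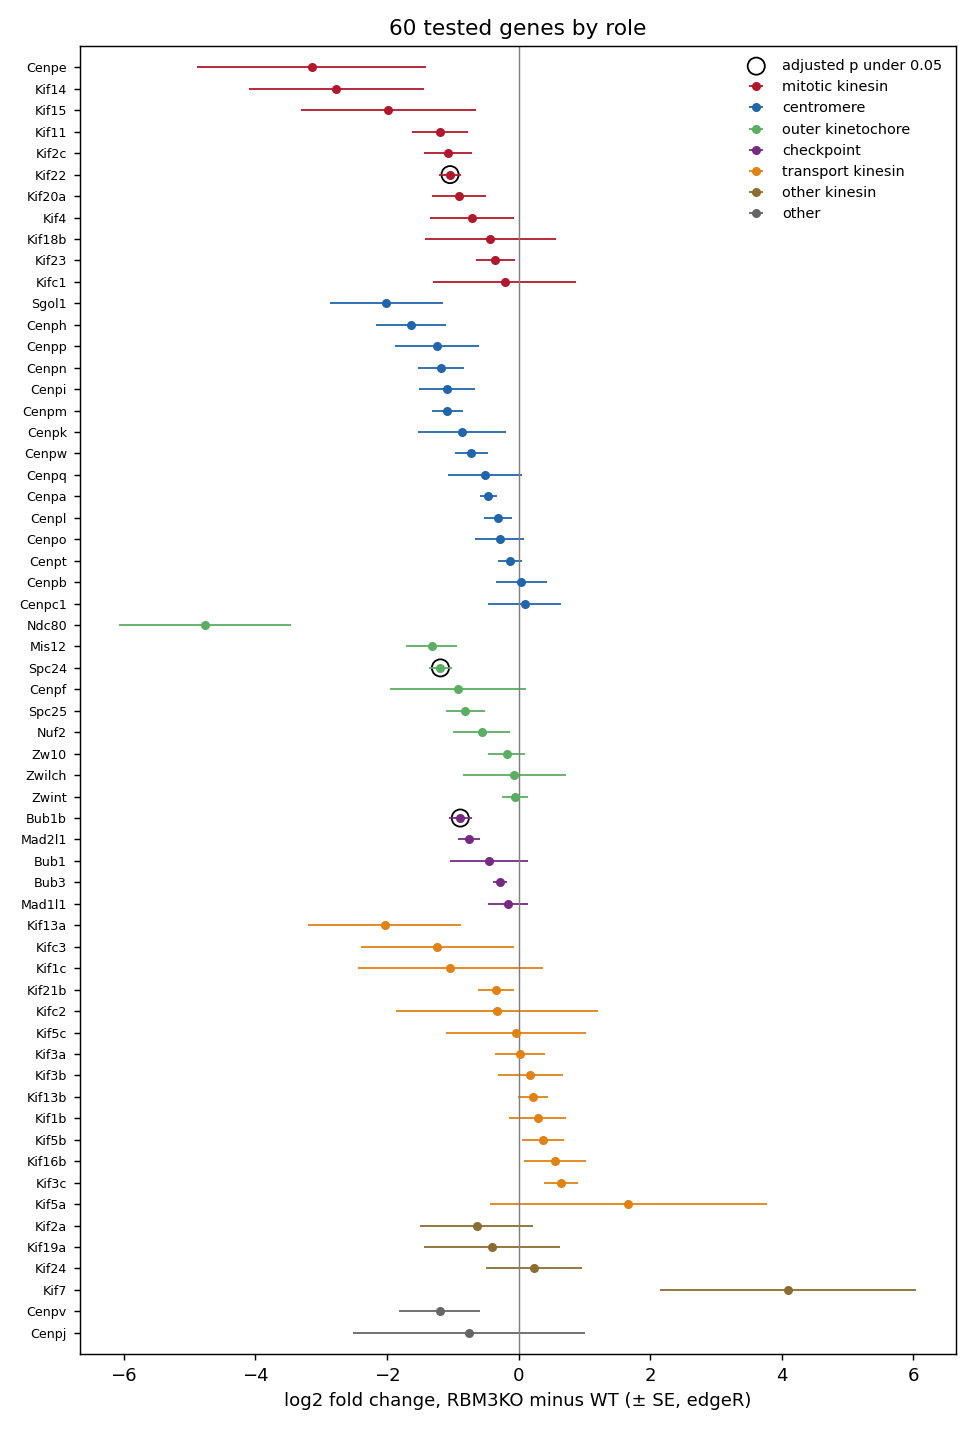
Log2 fold change (RBM3KO minus WT, horizontal axis) with its SE for the 60 tested genes, grouped and coloured by role, with a ring around the 3 called genes. All 11 tested mitotic kinesins lie below 0, while the 14 transport kinesins spread to both sides from -2.04 for Kif13a to 1.67 for Kif5a.

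The start sites of the mitotic genes also differ in sequence from those of the transport kinesins, a feature that the choice of genes did not use. The cell cycle genes homology region (CHR, spelled TTTGAA or TTCGAA) is the site through which the MuvB complexes hold mitotic genes silent at rest and switch them on before division, and the CCAAT box (CCAAT) binds NF-Y. E2F sites were searched as TTCCCGC or TTTGGCGC, and all motifs on both strands. Windows from 250 bases before to 50 bases after the start site came from RefSeq on GRCm38.p6 and were found for 58 of the 68 genes and for 8929 of the tested genes. A CHR stood in 24 of 41 windows of mitotic kinesin, centromere, kinetochore and checkpoint genes (58.5%), against 13.8% of all tested genes. It was in 11 of 13 mitotic kinesin windows and in 0 of 10 transport kinesin windows. The window of Kif2c, among these 11, surrounds a RefSeq start site 3867 bases from the start of the GENCODE transcript used here. The CCAAT box was in 28 of the 41 (68.3%, against 38.8%), both motifs together in 19 of the 41 (46.3%, against 5.79%), and an E2F motif in 11 of the 41 (26.8%, against 9.96%), 8 of them centromere genes. Kifc1 and Kifc5b are near-identical copies, so their windows are not independent. Of all genes called lower that had a window, 26 of 94 held a CHR. A match of letters is a description and not a shown binding site. The sequences below were chosen after the matches were seen. Kif22 and Bub1b are called genes, Kif11 holds a CHR next to its start site, Cenpl holds all 3 kinds of motif, and Kif3b is a transport kinesin without a CHR. Each starts 250 bases before the RefSeq start site, ends before the first annotated transcribed base, and is written 5′ to 3′ on the strand of the gene with complete motifs in capitals.
Kif22 (chr7:127042472-127042670, minus strand): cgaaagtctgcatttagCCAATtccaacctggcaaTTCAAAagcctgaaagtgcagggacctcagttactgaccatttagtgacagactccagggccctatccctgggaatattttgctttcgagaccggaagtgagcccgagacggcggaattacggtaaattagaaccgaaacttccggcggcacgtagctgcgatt
Bub1b (chr2:118597961-118598210, plus strand): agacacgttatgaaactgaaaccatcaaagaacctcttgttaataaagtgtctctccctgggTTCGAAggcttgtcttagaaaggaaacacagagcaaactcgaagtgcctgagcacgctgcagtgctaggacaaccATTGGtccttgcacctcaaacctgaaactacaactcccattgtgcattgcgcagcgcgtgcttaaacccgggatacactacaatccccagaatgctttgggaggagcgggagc
Kif11 (chr19:37376132-37376381, plus strand): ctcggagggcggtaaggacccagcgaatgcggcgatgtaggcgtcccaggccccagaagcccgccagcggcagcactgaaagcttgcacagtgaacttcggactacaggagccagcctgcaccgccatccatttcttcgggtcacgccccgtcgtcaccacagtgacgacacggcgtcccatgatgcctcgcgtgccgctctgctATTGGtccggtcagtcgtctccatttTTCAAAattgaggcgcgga
Cenpl (chr1:161070517-161070712, plus strand): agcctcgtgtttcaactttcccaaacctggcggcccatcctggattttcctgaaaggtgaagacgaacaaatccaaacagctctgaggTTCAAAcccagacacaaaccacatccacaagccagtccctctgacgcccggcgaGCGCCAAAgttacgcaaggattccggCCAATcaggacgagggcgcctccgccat
Kif3b (chr2:153291166-153291412, plus strand): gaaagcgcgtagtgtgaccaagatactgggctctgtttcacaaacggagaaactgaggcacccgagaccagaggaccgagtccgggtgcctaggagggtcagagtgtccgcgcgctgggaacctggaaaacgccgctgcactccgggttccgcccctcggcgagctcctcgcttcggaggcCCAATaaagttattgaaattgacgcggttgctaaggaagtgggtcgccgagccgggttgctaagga
In the stretches shown, the CHR of Kif22 and Cenpl appears as TTCAAA, the reverse complement of TTTGAA. Kif11 holds a CHR 19 bases before its start site with a CCAAT box read on the other strand at position -45. Bub1b has TTCGAA, and its CCAAT box is also read on the other strand. In Cenpl the second run of capitals, GCGCCAAA, is the reverse complement of the E2F motif TTTGGCGC and stands before the CCAAT box. Kif3b has a CCAAT box and no CHR in the stretch shown. The full window of Kif22 holds 2 CHRs and 2 CCAAT boxes, and that of Bub1b 2 CHRs. The full window of Cenpl holds 2 CCAAT boxes and 2 E2F motifs. The second of each lies wholly or partly beyond the stretch shown, and so is not in capitals. The second CHR of Kif22 lies nearer to its RefSeq start site than the CHR of Kif11 does.

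Kif22 was the mitotic kinesin with the clearest difference. Its protein, also called Kid, binds chromosome arms and pushes them toward the spindle equator. Kif22 (chromosome 7, 127027729 to 127042471, mm10) stood at 118, 111 and 106 CPM in WT replicates 1, 2 and 3 and at 66.9, 46.4 and 49.1 CPM in RBM3KO replicates 1, 2 and 3. All 3 RBM3KO libraries lay below the lowest WT library. The log2 fold change was -1.04 by edgeR (SE 0.17, adjusted p = 0.0172). The call ended without WT replicate 1 (-1.001), WT replicate 2 (-1.05), RBM3KO replicate 2 (-0.94) or RBM3KO replicate 3 (-0.98), and over all 15 alternatives the adjusted p ran from 1.9e-05 to 0.123.

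Other mitotic kinesins at a mean of 10 CPM or more had lower means in RBM3KO and did not pass the test. Kif2c, the microtubule depolymerase MCAK that corrects wrong attachments at centromeres, had 26.4, 20.9 and 29.4 CPM in WT and 11.4, 17.9 and 7.00 CPM in RBM3KO. Its libraries did not overlap between the genotypes (edgeR log2 fold change -1.07 with SE 0.37, adjusted p = 0.236). Kif20a, needed to bring the chromosomal passenger complex to the central spindle in late mitosis, had 57.2, 42.9 and 26.4 CPM in WT and 32.0, 25.4 and 9.69 CPM in RBM3KO, which overlapped (-0.90, SE 0.41, adjusted p = 0.409). Exons of Kif20a share 977 bases with Cdc23 on the other strand, and reads there cannot be told apart in a library that does not mark strand. Kif23, a subunit of centralspindlin that drives cytokinesis, stood at 33.4, 38.4 and 28.9 CPM in WT and 26.5, 35.3 and 16.6 CPM in RBM3KO, with overlap (-0.36, SE 0.29, adjusted p = 0.726).

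The remaining mitotic kinesins were low, and those named here lie outside the naming rule and were chosen after their values were seen. Kif11, the motor Eg5 that pushes spindle poles apart, had 14.4, 15.5 and 11.9 CPM in WT and 8.09, 6.63 and 3.36 CPM in RBM3KO, without overlap (edgeR log2 fold change -1.19 with SE 0.43, adjusted p = 0.268). Kif14, a motor of the midbody, had 33, 48 and 215 counts in WT and 0, 12 and 10 in RBM3KO. Cenpe, the kinetochore motor that brings chromosomes to the equator, had 32, 73 and 11 counts in WT and 0, 1 and 6 in RBM3KO. These counts differ several-fold between libraries of the same genotype, and neither gene passed the test (adjusted p = 0.432 for Kif14 and 0.525 for Cenpe). Kif4, Kif15, Kif18b and Kifc1 had mean levels from 3.37 to 7.21 CPM in WT and from 0.948 to 4.40 CPM in RBM3KO, and all 4 overlapped. Kifc1 shares 96.8% of 2312 aligned bases with Kifc5b, so the reads of this pair may have been split or lost. Kif18a, Kif20b and Kifc5b did not pass the filter. Kif18a had 6, 27 and 0 counts in WT and Kif20b 1, 21 and 4, and both had 0 in each RBM3KO library.

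Of the 9 tested outer kinetochore genes, 1 fell, Spc24, and 8 did not pass, where 1.00% of all tested genes were called lower. The estimates of the NDC80 complex and Mis12 ran from -4.76 to -0.56, and those of the RZZ group from -0.18 to -0.06. The NDC80 complex is the rod that grips the microtubule, built of Ndc80, Nuf2, Spc24 and Spc25. Spc24 (chromosome 9, 21755442 to 21760303, mm10) had 125, 91.8 and 104 CPM in WT and 45.8, 41.7 and 53.4 CPM in RBM3KO, with no overlap. Its log2 fold change was -1.19 by edgeR (SE 0.17, adjusted p = 0.0111), and the call ended without WT replicate 1 (-1.06) or RBM3KO replicate 2 (-1.11), with adjusted p-values from 8.3e-07 to 0.0943 over the 15 alternatives. Spc25, its partner at the centromere end of the rod, had 35.8, 31.1 and 32.3 CPM in WT and 23.9, 12.002 and 20.9 CPM in RBM3KO. These did not overlap either, and the difference did not pass (-0.81, SE 0.29, adjusted p = 0.268).

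Ndc80, the subunit that touches the microtubule, was chosen after its values were seen, with 78, 62 and 171 counts in WT and 0, 2 and 4 counts in RBM3KO. Its levels, 3.64 to 6.70 CPM in WT against at most 0.538 CPM in RBM3KO, did not overlap, and the estimate is imprecise at such counts (edgeR log2 fold change -4.76 with SE 1.30, adjusted p = 0.133). DESeq2 called it lower. Nuf2 stood at 10.6, 20.4 and 10.1 CPM in WT and 13.2, 8.30 and 6.19 CPM in RBM3KO, with overlap (-0.56, SE 0.44, adjusted p = 0.701). Spc24 was the 1 subunit of this complex that passed the test. Mis12, which joins the rod to the centromere, had 11.5, 18.8 and 23.5 CPM in WT and 5.61, 7.58 and 8.34 CPM in RBM3KO, without overlap and without a call (-1.32, SE 0.39, adjusted p = 0.168), and shares 231 exon bases with Derl2 on the other strand.

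Zw10, Zwilch and Zwint belong to or recruit the RZZ complex, which brings dynein and checkpoint proteins to unattached kinetochores. Zwint had 43.1, 42.1 and 37.2 CPM in WT and 38.5, 43.8 and 35.1 CPM in RBM3KO, and the genotypes overlapped (edgeR log2 fold change -0.06 with SE 0.20, adjusted p = 0.958). Zw10, which also acts in membrane traffic between divisions, had 37.4, 37.9 and 21.7 CPM in WT and 31.7, 30.1 and 23.3 CPM in RBM3KO (-0.18, SE 0.28, adjusted p = 0.886). A failed test does not show that these genes were equal, but the SE of Zwint is close to that of Spc24 and its estimate is far smaller. Zwilch and Cenpf, a large kinetochore protein, were below 10 CPM in every library and overlapped.

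**Figure D3:**
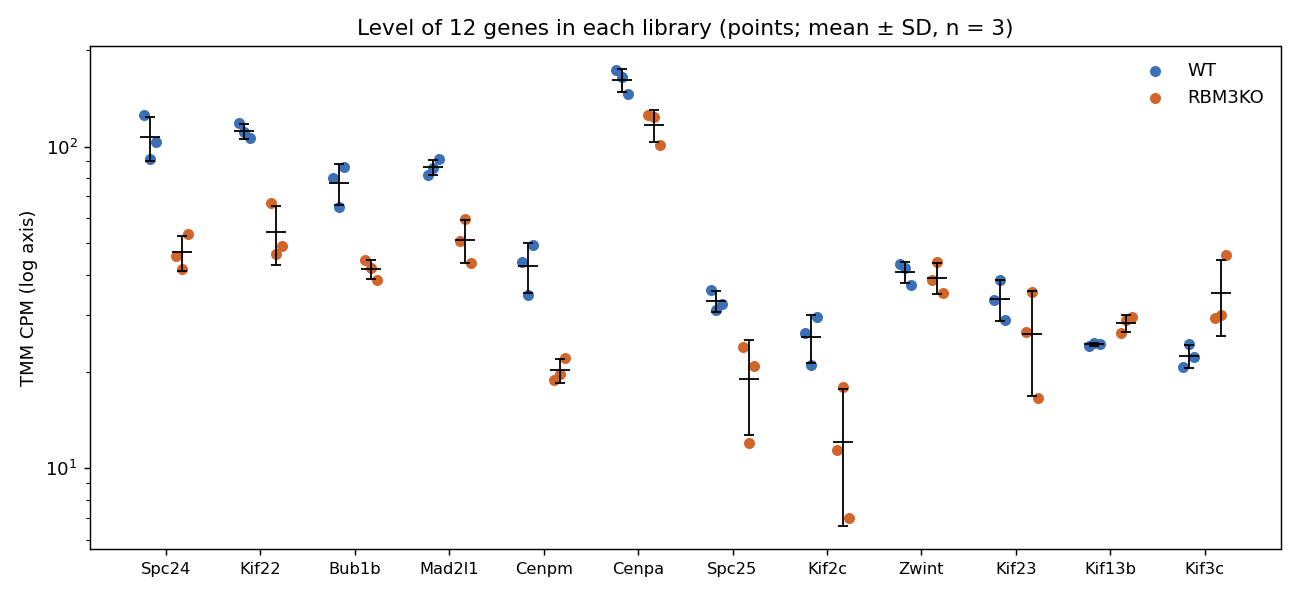
TMM CPM (log axis) of 12 genes in each library, WT in blue and RBM3KO in orange, with the mean and SD of 3 libraries. Spc24, Kif22, Bub1b, Mad2l1, Cenpm, Cenpa, Spc25 and Kif2c are lower in every RBM3KO library than in any WT library, Zwint and Kif23 overlap, and Kif13b and Kif3c are higher in every RBM3KO library.

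Of the 5 checkpoint genes 1 fell, Bub1b, and 4 did not pass, where 1.00% of all tested genes were called lower. Bub1b encodes BUBR1, a subunit of the complex that inhibits the anaphase-promoting complex. It lies on chromosome 2, 118598211 to 118641591 (mm10), and had 80.0, 64.7 and 86.6 CPM in WT and 44.4, 42.0 and 38.6 CPM in RBM3KO. The WT libraries were all above the RBM3KO libraries (edgeR log2 fold change -0.89 with SE 0.18, adjusted p = 0.0406). This call was near the threshold. It was lost whichever 1 of the 6 libraries was left out, where the log2 fold change ran from -0.999 without WT replicate 2 to -0.80 without WT replicate 3, and with the replicate number as a block (-0.88, adjusted p = 0.0607).

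Mad2l1, the MAD2 protein that is converted to its inhibitory form at unattached kinetochores, had 81.9, 85.8 and 91.4 CPM in WT and 50.8, 59.5 and 43.6 CPM in RBM3KO. It had no overlap and just missed the threshold (edgeR log2 fold change -0.75 with SE 0.17, adjusted p = 0.0633), and it passed by DESeq2, with no low-count filter, with the filter at 10 CPM and after the offset for GC content. Bub3, which docks BUB1 and BUBR1 at kinetochores, was the most abundant of the 68 genes at 319, 329 and 321 CPM in WT and 301, 259 and 235 CPM in RBM3KO. These values were separated by a small step (-0.28, SE 0.11, adjusted p = 0.305). Mad1l1, the anchor of MAD2, had 45.9, 45.8 and 49.9 CPM in WT and 46.8, 21.9 and 58.3 CPM in RBM3KO, so that RBM3KO replicate 2 lay far below the other RBM3KO libraries. Its log2 fold change was -0.16 (SE 0.31, adjusted p = 0.912) and turned to 0.15 without RBM3KO replicate 2. Bub1, the kinase partner, had 10.2 CPM in WT replicate 2, at most 5.35 CPM in the other libraries, and overlapped.

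Of the 15 tested centromere genes 0 were called by edgeR, while 7 were lower and 0 higher at an unadjusted p under 0.05 and DESeq2 called Cenpm. Over all tested genes edgeR called 1.00% lower, and 6.87% were lower and 5.46% higher at an unadjusted p under 0.05. Cenpa, the histone variant that marks the centromere, had 173, 164 and 146 CPM in WT and 125, 124 and 101 CPM in RBM3KO, without overlap (edgeR log2 fold change -0.46 with SE 0.13, adjusted p = 0.146). Cenpm, a structural subunit of the constitutive network, had 43.7, 34.7 and 49.4 CPM in WT and 18.8, 19.6 and 22.1 CPM in RBM3KO. The genotypes were clearly apart and the adjusted p was just above the threshold (-1.08, SE 0.23, adjusted p = 0.0575), and it passed by DESeq2, with no filter and with the filter at 10 CPM. Cenpw, which binds DNA as part of the histone-fold complex, had 38.6, 29.9 and 32.5 CPM in WT and 24.7, 17.97 and 18.7 CPM in RBM3KO (-0.72, SE 0.25, adjusted p = 0.243). Cenpn, which recognises the CENP-A nucleosome, had 17.0, 17.0 and 24.8 CPM in WT and 11.1, 6.45 and 8.48 CPM in RBM3KO (-1.18, SE 0.36, adjusted p = 0.177). Both were without overlap, as was Cenpi (-1.09, SE 0.43, adjusted p = 0.325), a member of the same network as Cenpm.

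Other centromere genes above 10 CPM overlapped between the genotypes. Cenpt, which links the network to the NDC80 complex, stood at 61.9, 47.0 and 54.5 CPM in WT and 51.9, 52.2 and 45.6 CPM in RBM3KO (edgeR log2 fold change -0.12 with SE 0.18, adjusted p = 0.882). Cenpl, the partner of CENP-N, had a log2 fold change of -0.31 (SE 0.22, adjusted p = 0.649). Cenpo had -0.29 (SE 0.37, adjusted p = 0.861) and shares 921 exon bases with Adcy3 on the other strand. Cenpb, which binds a repeated DNA motif of centromeres, had 14.3, 10.9 and 11.2 CPM in WT and 8.87, 18.1 and 10.4 CPM in RBM3KO, and its sign depended on single libraries. Below 10 CPM and chosen after their values were seen, Sgol1, which protects centromeric cohesion, had 135, 368 and 365 counts in WT and 3, 130 and 25 in RBM3KO, and Cenph 180, 268 and 221 against 29, 72 and 45. Both were separated between the genotypes without passing the test (adjusted p = 0.372 for Sgol1 and 0.207 for Cenph). Cenpp was also separated, Cenpc1, Cenpk and Cenpq overlapped, and Sgol2, with at most 32 counts in a library, was not tested.

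**Figure D4:**
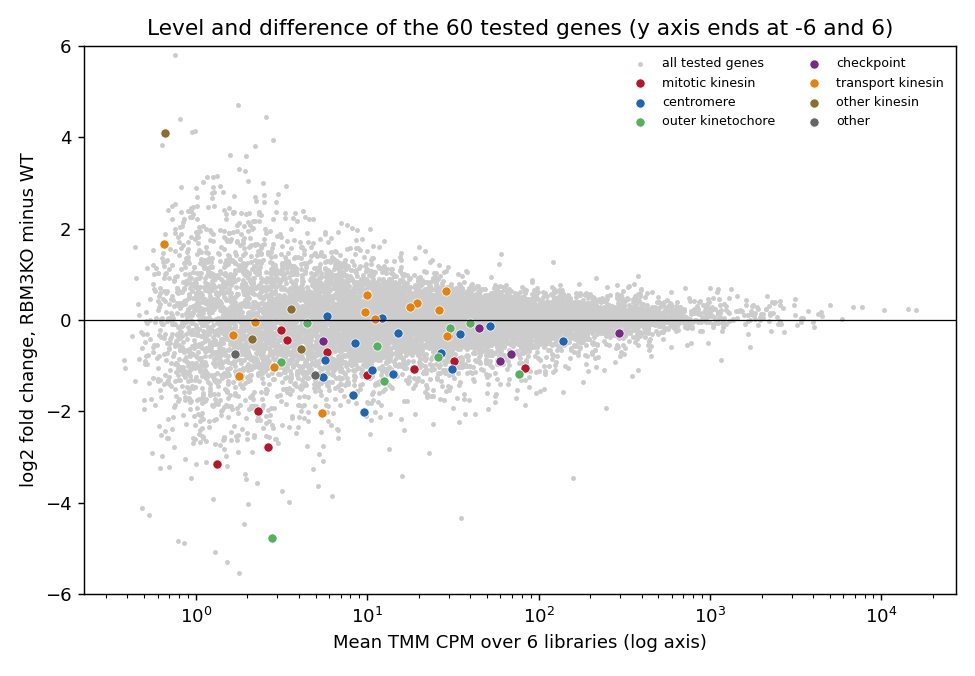
Log2 fold change (RBM3KO minus WT) against mean TMM CPM over 6 libraries (log axis) for all tested genes in grey and the 60 genes in the colour of their role. Of the 40 mitotic kinesin, centromere, kinetochore and checkpoint genes 38 lie below 0, and among the 60 genes the estimates beyond -2 and 2 belong to those below 10 CPM.

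The transport kinesins had estimates on either side of 0, and 0 of 14 passed the test. Kif3c, a subunit of kinesin-2, had 20.6, 24.3 and 22.2 CPM in WT and 29.4, 30.04 and 46.0 CPM in RBM3KO, the only transport kinesin with an unadjusted p under 0.05 (edgeR log2 fold change 0.64 with SE 0.26, adjusted p = 0.331). Every RBM3KO library was above WT, but an antisense gene shares 2617 of its exon bases. Reads there cannot be told apart in a library that does not mark strand. Kif13b, a motor of vesicles and signalling proteins, stood at 24.0, 24.5 and 24.4 CPM in WT and 26.3, 29.0 and 29.5 CPM in RBM3KO, separated by a small margin (0.22, SE 0.23, adjusted p = 0.807). Kif5b, the heavy chain of conventional kinesin, had 15.4, 22.8 and 12.9 CPM in WT and 17.1, 22.5 and 26.5 CPM in RBM3KO, with overlap (0.37, SE 0.32, adjusted p = 0.754). Kif21b, a motor that also limits microtubule growth in T cells, had 35.8, 27.6 and 34.7 CPM in WT and 32.2, 17.4 and 27.9 CPM in RBM3KO (-0.34, SE 0.28, adjusted p = 0.718). Kif1b, a carrier of mitochondria and vesicles, had a log2 fold change of 0.29 (SE 0.43, adjusted p = 0.885), and Kif3a, of kinesin-2, 0.02 (SE 0.38, adjusted p = 0.993).

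Kif13a, which carries endosomes and was chosen after its values were seen, had the lowest estimate of the transport kinesins, with 127, 148 and 206 counts in WT and 0, 16 and 42 in RBM3KO (edgeR log2 fold change -2.04 with SE 1.16, adjusted p = 0.538). The other tested transport kinesins, Kif1c, Kif3b, Kif5a, Kif5c, Kif16b, Kifc2 and Kifc3, overlapped. Kif1a and Kif17, motors of neurons and cilia, had 3 counts each over the 6 libraries and were not tested. Of the other kinesins, Kif2a, Kif19a and Kif24 overlapped, Kif6 and Kif9 were not tested, and Kif7, a regulator of Hedgehog signalling in cilia that was also chosen after its values were seen, had 3, 0 and 0 counts in WT and 21, 26 and 6 in RBM3KO (adjusted p = 0.429). Cenpv and Cenpj, which is a centriole protein despite its name, stayed below 10 CPM in every library. Cenpv was separated, lower in RBM3KO, without passing the test (edgeR log2 fold change -1.20 with SE 0.62, adjusted p = 0.479), and Cenpj overlapped.

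Set per length of transcript, the mean level in WT was 146 CPM per kb for Bub3, 110 for Cenpa, 78.2 for Spc24, 52.8 for Kif22 and 30.02 for Cenpt. In RBM3KO it was 119.6, 79.7, 34.4, 25.6 and 27.5 CPM per kb in the same order of genes, with Cenpt above Kif22 there and below it in WT, and neither order was tested. The highest transport kinesin on this scale was Kif3a at 5.09 CPM per kb in WT and Kif3c at 5.17 CPM per kb in RBM3KO. These levels depend on the transcript chosen for the length, which was the one with the longest coding sequence. By mean CPM over the 6 libraries, Kif22, Spc24 and Bub1b stood at 82.9, 76.9 and 59.4, among the more abundant of the 68 genes.

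Genes that work with these proteins were taken from lists of partners. These lists were chosen with earlier results of these data known, so the counts and medians given for them are descriptions. Of 23 tested partners at the centromere and kinetochore, 6 fell and 17 did not pass, where 1.00% of all tested genes were called lower. Their median log2 fold change was -0.73, against 0.01 over all tested genes. These were Plk1, the mitotic kinase (-1.67, SE 0.18, edgeR adjusted p = 0.00415), Aurkb (-1.79), Incenp (-1.10) and Birc5 (-1.12), which form the chromosomal passenger complex with Cdca8, Cdc20, the target of the checkpoint (-1.18), and Oip5, which helps to load CENP-A (-2.05). Cdca8, chosen after its values were seen, missed the threshold (-1.07, adjusted p = 0.0528). Plk1 stood at 85.3 ± 8.80 CPM in WT against 26.8 ± 3.55 CPM in RBM3KO (SD, n = 3 each). Of 12 tested spindle partners, 2 fell, Prc1, which bundles the central spindle (-1.52), and Aurka, the kinase of spindle poles (-1.74), again against 1.00% of all tested genes, with a median of -0.81. Of 20 tested light chains, dynein, dynactin and mitochondrial adaptors that serve cargo transport, 0 passed, where 1.25% of all tested genes were called. At an unadjusted p under 0.05, 2 were lower and 1 higher, close to the 6.87% and 5.46% of all tested genes, and the median was 0.07. The most abundant of them, Dctn3 and Dctn2, had log2 fold changes of 0.13 (adjusted p = 0.726) and 0.11 (adjusted p = 0.784). The 3 with an unadjusted p under 0.05, which were chosen after their values were seen, were Dctn1 (0.38, adjusted p = 0.192), Rhot2 (-0.80, adjusted p = 0.289) and Trak1 (-0.69, adjusted p = 0.340).

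Of 11 tested genes of DNA replication and general markers of division, 6 fell, namely Pcna, Mcm3, Mcm5, Mcm7, Tyms and Rrm2, where 1.00% of all tested genes were called lower. All 11 estimates were below 0, against 49.1% of all tested genes, with a median log2 fold change of -0.65. This list too was chosen with earlier results of these data known, so its counts are descriptions. Top2a, which untangles DNA, had 64.9, 73.1 and 46.8 CPM in WT and 44.8, 48.2 and 22.3 CPM in RBM3KO, which overlapped (-0.67, SE 0.29, edgeR adjusted p = 0.375). Mki67, the antigen of dividing cells, had 5.03, 10.3 and 6.27 CPM in WT and 4.89, 4.24 and 1.21 CPM in RBM3KO (-1.05, SE 0.67, adjusted p = 0.607). Neither passed the test, though Mki67 was lower in every RBM3KO library than in any WT library.

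**Figure D5:**
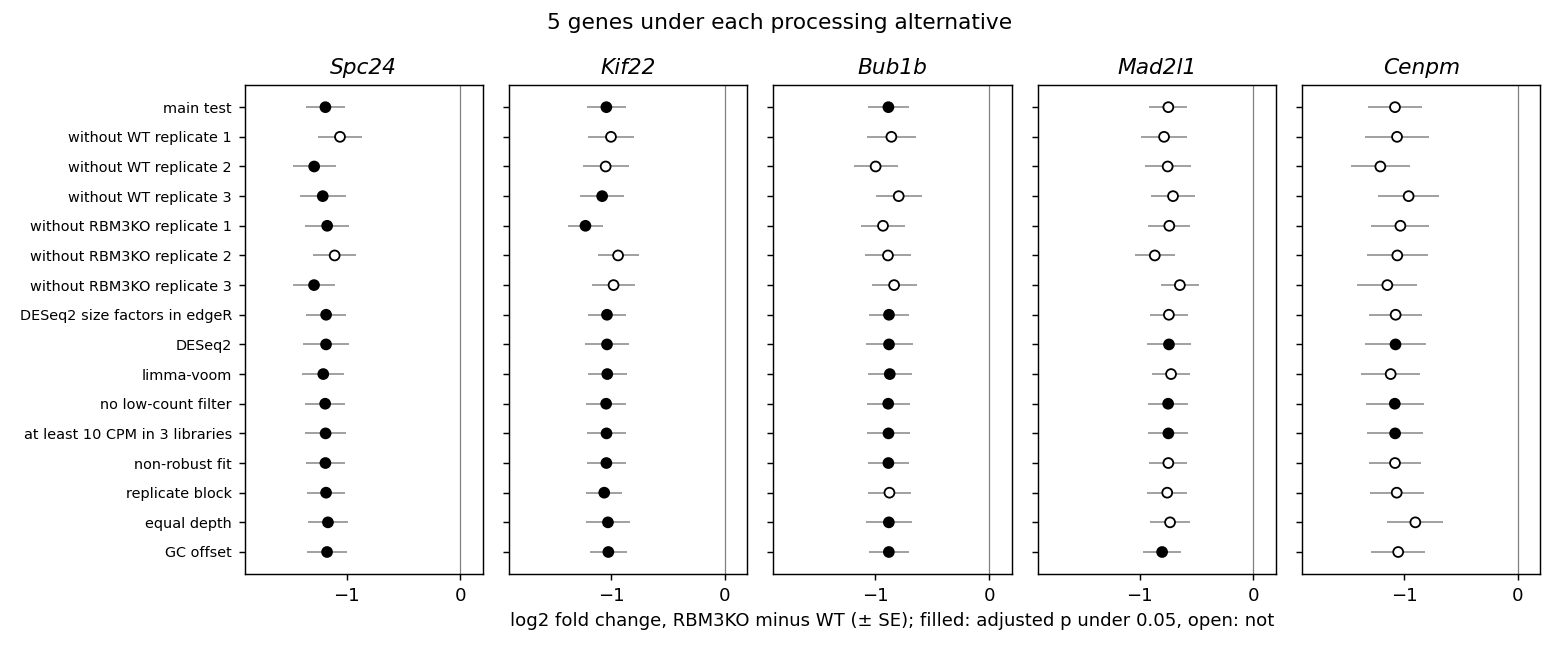
Log2 fold change (RBM3KO minus WT) with its SE for 5 genes in the main test and under 15 alternatives, with filled points at an adjusted p under 0.05 and open points otherwise. The estimates stay between -1.29 and -0.65, while the call of Bub1b ends when any 1 of the 6 libraries is left out and those of Mad2l1 and Cenpm appear only in some settings.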

How the data were processed

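For 6 Smart-seq2 polyA RNA libraries the authors deposited unnormalized counts, whole numbers with gene symbols as rows. The tools were featureCounts 1.6.5, STAR 2.6.1c and Bowtie 1.0.0 on build mm10, per the submitters' processing notes, which give no roles. Annotation, strand setting and read filters: not given in the sources used here. Smart-seq2 with Nextera XT in its standard form marks no strand and has no molecular identifiers, so PCR copies are counted, and floors cover counting error only.

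Genes were filtered with filterByExpr (11382 of 14416 kept, 99.9% of counts), scaled by TMM and compared with edgeR 4.0.16's robust quasi-likelihood test (R 4.3.3), RBM3KO against WT, with Benjamini-Hochberg adjustment over all tested genes at 0.05 and no covariate. SE is the log2 fold change divided by the square root of F. The smallest exact p of 3 against 3 is 0.1, so no single-gene permutation test was used. The script was tested on simulated data. The alternatives were each library left out, DESeq2 1.42.0, its size factors in edgeR, limma-voom (limma 3.58.1), 2 filters, a non-robust fit, a replicate block, equal depth and an offset for GC content. No library pair agreed within sampling noise (chi-square per degree of freedom at least 20.0).

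Symbols were matched to GENCODE M21, of the mm10 assembly (98.8% of genes, all 68 members). Knstrn, also in the rule, is not analysed here, and 1 B cell marker was left out of its list and is not reported here. The members and lists were chosen with earlier results of these data known. The naming rule takes called members, others with a mitotic role at a mean of 10 CPM or more, the 6 most abundant transport kinesins, and up to 6 called partners per list.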

Additional observations from a re-analysis of the deposited data

How the results depend on the processing

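Of the 68 genes, 0 were called higher and 0 transport kinesins were called in either direction under all 15 alternatives. The 3 genes called lower became 6 by DESeq2, 5 with no low-count filter and 5 at 10 CPM or more in 3 libraries, and 0 to 2 with a library left out, which leaves fewer samples; the 1 mitotic kinesin called, Kif22, became 0 to 1. Over all genes, 114 were called lower and 28 higher, Rbm3 included. Leaving out a library gave 11 to 85 lower and 1 to 18 higher. DESeq2 gave 261 lower and 153 higher, and the count called higher was 52 with limma-voom, 48 with no filter and 59 at 10 CPM or more. The cause of these shifts was not tested.

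Of 435 values of the 29 named genes under the alternatives, 403 kept direction and side of the threshold, 13 lost a call, 7 gained one and 12 changed sign, all 12 in genes that were not called. With 1 library left out, the log2 fold change ran from -0.33 to 0.24 for Cenpb, -0.13 to 0.31 for Kif3a, -0.098 to 0.65 for Kif1b, -0.46 to 0.15 for Mad1l1 and -0.15 to 0.013 for Zwint. Among genes that kept their sign, the range was -0.92 to -0.16 for Nuf2, -0.63 to -0.12 for Kif23, -1.24 to -0.55 for Kif20a, -0.54 to -0.12 for Kif21b, 0.41 to 0.76 for Kif3c, 0.20 to 0.63 for Kif5b, -0.56 to -0.078 for Cenpo, -0.43 to -0.20 for Cenpl, -0.22 to -0.024 for Cenpt and -0.41 to -0.054 for Zw10. At equal depth that of Kif3a was -0.051.

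With the replicate block, 2 of the 68 genes were called lower, the call of Bub1b ended (log2 fold change -0.88, adjusted p = 0.0607) and Cenpb turned to -0.022. The samples share only a number: same-numbered WT and RBM3KO libraries correlated at 0.056, 0.057 and 0.0053 in their deviations from the group means, and WT replicate 3 did not correlate best with its own number. For genes below 10 CPM a few counts decide a value in the shallowest library, where 3 counts are 0.404 CPM.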

Other observations

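Among the 37 tested mitotic kinesin, centromere, kinetochore and checkpoint genes with a promoter window, the median estimate of the 22 with a CHR was -0.85 (log2 fold change), with all 22 below 0. The 15 without one had a median of -0.56, with 13 below 0. Of the 22 with a CHR, the 18 that also held a CCAAT box had a median of -0.76. The 4 without that box had -1.52. Among tested genes outside the 68, the 498 with both a CHR and a CCAAT box had a median of -0.07, and 20 of them (4.02%) were called lower and 2 higher. The 712 with a CHR and no CCAAT box had a median of -0.00019, and 4 of them (0.562%) were called lower and 2 higher. Of the 7669 without a CHR, 68 (0.887%) were called lower and 19 higher, with a median of 0.02. These are descriptions, and no test was made.

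Of the 44 genes of these 4 roles, WT libraries 1 to 3 held at least 1 count for 43, 44 and 43, and RBM3KO libraries 1 to 3 for 37, 42 and 41. RBM3KO replicate 1 had the fewest although its total of 15843924 counts exceeds that of WT replicate 1, at 13339633. Over all 14416 genes, WT libraries 1 to 3 held at least 1 count for 12481, 12654 and 12024. RBM3KO libraries 1 to 3 did so for 11782, 12418 and 11856. RBM3KO replicate 1 again had the fewest, with 11782 against 11856 in RBM3KO replicate 3. Whether its low number among the 44 genes goes beyond this was not tested. Transport kinesins with at least 1 count numbered 14, 14 and 12 in WT and 13, 14 and 13 in RBM3KO.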
